A study of Mus musculus with 6 samples.

Results

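The genes described here are 9 members of the YAP/TAZ pathway, out of 23329 gene symbols counted in brain endothelial cells of mice: Ctgf, Cyr61, Ankrd1, Amotl1, Amotl2, Lats2, Yap1, Wwtr1 and Tead1. They were taken by symbol, and the set was put together because Ctgf was higher in libraries labelled GLUT1EC-/- than in WT. The set was thus chosen by the measured Ctgf values of this same comparison, and those are given below as a description, with no p-value. Standard errors and intervals stand for the uncertainty of the fitted difference, in a fit whose estimates of variation draw on all genes. Standard deviations (SD) stand for the spread between libraries. All 9 symbols were found in each library, and 8 passed the filter on low counts. Ankrd1 did not.

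RNA was sequenced from endothelial cells isolated from the brains of C57BL/6 mice aged 8 weeks with magnetic bead sorting (MACS), lysed without culture. One group was WT, n = 3 libraries, and the other was labelled GLUT1EC-/- (knockout-labelled in what follows), n = 3 libraries, a knockout of the glucose carrier GLUT1 in endothelial cells. The WT animals were littermates of the knockout animals, per the labels' protocols. The labels give neither the Cre driver nor the deleted exons, and each library carries an animal number of its own.

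YAP (gene Yap1) and TAZ (gene Wwtr1) are paralogous co-activators that do not bind DNA themselves and act in the nucleus through TEAD transcription factors. The Hippo kinase cascade ends in LATS1 and LATS2, which phosphorylate YAP and TAZ and keep them in the cytoplasm, and the angiomotins (Amotl1 and Amotl2 among them) hold them at cell junctions. Because this control acts on the proteins, transcript levels of Yap1 and Wwtr1 do not measure their activity, and transcripts of target genes such as Ctgf, Cyr61 and Ankrd1 are commonly used as a readout. In endothelium the pathway is known for its part in vessel sprouting and barrier maturation and for its response to stiffness and flow. Ctgf and Cyr61 also respond to TGF-beta and to the actin-regulated factor SRF.

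Total counts ranged from 31874662 to 39424384 per library, so each of the 8 tested members rested on at least 1873 counts in every library and counting error was small beside the differences between animals. Endothelial markers were abundant in both groups. The summed level of 10 of them was 13630 to 14410 CPM in WT and 12570 to 14750 CPM in the knockout-labelled libraries. In the test below (edgeR) 0 of the 10 passed, and DESeq2 and limma-voom also called 0. An unadjusted p under 0.05 (edgeR) was found for 2 of them, and for 2148 of all 14838 tested genes. In 2 the knockout-labelled libraries all lay above WT and in 3 all lay below, against 11.7% and 11.2% of all tested genes. CPM stands for the count scaled to the effective size of the library, which is its summed count times its TMM scaling factor. The targeted gene did not separate the groups: Slc2a1 was at 3984, 4479 and 4172 CPM in WT 1 to 3, against 3735, 5414 and 3893 CPM in the knockout-labelled libraries 1 to 3, a log2 change of 0.05 with an SE of 0.18 (adjusted p = 0.921 in edgeR). Directions are therefore given between libraries as labelled. GLUT1EC-/- 2 stood apart, with a TMM scaling factor of 0.884 against 1.01 to 1.05 in the other libraries, which raises its CPM relative to scaling by library size alone.

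Ctgf was about 3 times as high in the knockout-labelled libraries as in WT, while the other 7 tested members had intervals that reached no further than a 1.85-fold difference. The second CCN gene, Cyr61, lay lower by value, and the co-activators Yap1 and Wwtr1 had nearly equal means in the groups. In the fit across 14838 genes (quasi-likelihood test of edgeR, called at an adjusted p under 0.05 by Benjamini-Hochberg), Ctgf was the 1 member of 8 called and 0 fell. Of all tested genes 1.31% were called, 0.863% as higher and 0.445% as lower. Since Ctgf chose the set, nothing is read from that count, which was 0 without WT 1, WT 2 or WT 3. Over all genes those fits called 0, 1 and 5.

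Ctgf, now named Ccn2, encodes connective tissue growth factor, a secreted matricellular protein of the CCN family. It lies on the plus strand at chr10:24595442-24598683 (GRCm38, GENCODE M21) and has 5 exons. Its level was 117, 125 and 157 CPM in WT 1 to 3, against 328, 451 and 459 CPM in GLUT1EC-/- 1 to 3. Every knockout-labelled library lay above every WT library, which held for 11.7% of all tested genes. The smallest ratio between a knockout-labelled library and a WT library was 2.09 and the largest 3.91. The means were 133 ± 21.3 and 413 ± 73.3 CPM (SD, n = 3 each), a fitted log2 fold change of 1.63 (SE 0.19), or 3.10-fold (95% interval 2.30 to 4.17). In bulk RNA, more cells that express a gene and more of its RNA per cell cannot be told apart. The coefficient of variation between libraries was 16.0% in WT and 17.7% in the knockout-labelled libraries.

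The animal numbers in the labels fall into a lower series (WT 1, WT 2 and GLUT1EC-/- 1) and a higher one (WT 3, GLUT1EC-/- 2 and GLUT1EC-/- 3), and the labels do not say what the numbering stands for. The log2 ratio of mean Ctgf levels was 1.44 within the lower series and 1.53 within the higher. With the series as a term the fitted log2 fold change was 1.485, against 1.63 without it. Leaving out any single library gave fitted values between 1.54 and 1.77. Scaled by library size alone, Ctgf was at 119, 126 and 162 CPM in WT 1 to 3 and at 336, 399 and 480 CPM in GLUT1EC-/- 1 to 3, and the groups lay apart on that scale too. A non-coding gene, Gm15270, overlaps 665 of the 2861 exon bases of Ctgf on the other strand. It has no row of its own in the counts, and with no strand setting stated, reads from it could not be told apart from those of Ctgf.

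**Figure D1:**
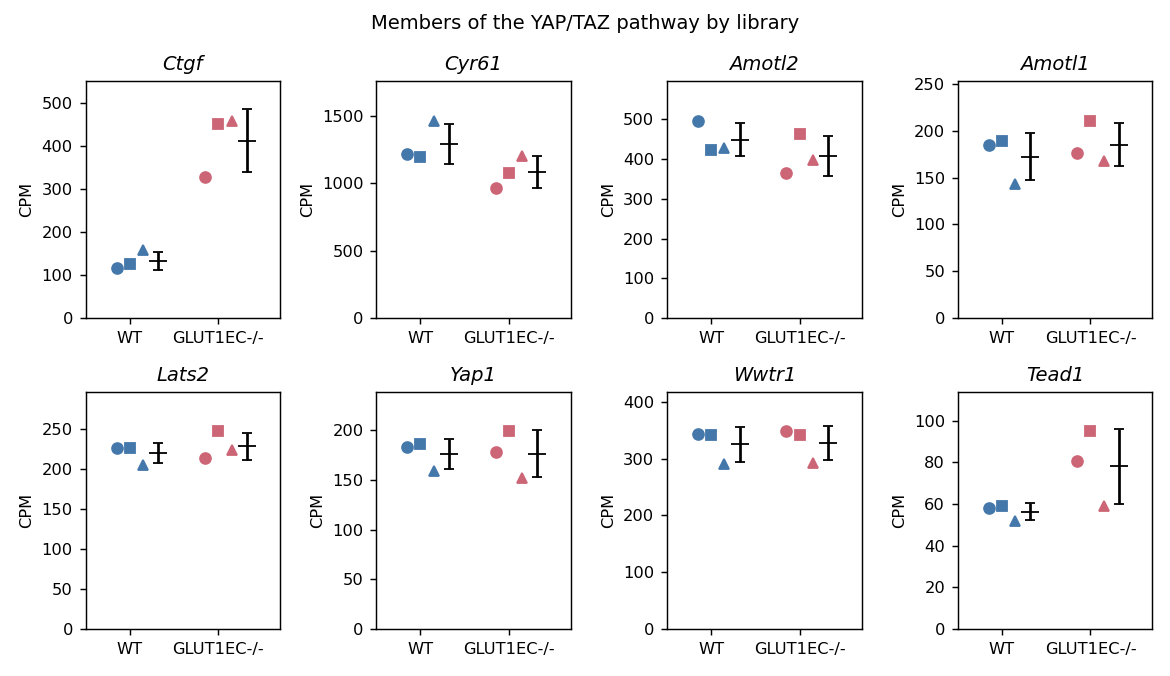
Level of each of the 8 tested members in CPM (vertical axis, from 0) in each library (circles, squares and triangles are replicates 1, 2 and 3), with the mean and SD of each group in black. In Ctgf all 3 knockout-labelled libraries (328 to 459 CPM) lie above all 3 WT libraries (117 to 157 CPM), which held for 11.7% of all tested genes. In the other panels the groups overlap with TMM scaling.

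Cyr61, now Ccn1, is the CCN family paralog of Ctgf and shares its use as a YAP/TAZ readout. It lies on the minus strand at chr3:145646976-145649981 and overlaps the exons of no other annotated gene. Its level was 1215, 1195 and 1465 CPM in WT 1 to 3, against 969, 1075 and 1205 CPM in GLUT1EC-/- 1 to 3. The groups overlapped, since GLUT1EC-/- 3 lay just above WT 2, a library of the other animal number series. The means were 1292 ± 150.4 and 1083 ± 118 CPM (SD, n = 3 each), a log2 fold change of -0.25 (SE 0.15, 95% interval -0.60 to 0.09). Within the animal number series the log2 ratio was -0.31 and -0.36.

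Set side by side per kb of exon sequence, the level of Cyr61 was 14.7, 13.6 and 13.2 times that of Ctgf in WT 1 to 3, and 4.18, 3.38 and 3.72 times in GLUT1EC-/- 1 to 3. The ratio did not overlap between the groups. These ratios rest on the Ctgf values that chose the set and were not tested.

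No other CCN gene was called. Of 4 listed, 2 were tested and 0 passed (edgeR; 1 had an unadjusted p under 0.05, and DESeq2 and limma-voom also called 0). Nov (Ccn3), which often opposes CCN2 in other tissues, was at 22.2, 21.2 and 15.9 CPM in the WT libraries, against 10.9, 10.8 and 15.3 CPM in those labelled GLUT1EC-/-, a log2 change of -0.68 with an SE of 0.21 (adjusted p = 0.182 in edgeR). Its groups did not overlap, which held for 22.9% of all tested genes. Wisp1 (Ccn4) was low, at 1.504 ± 0.299 and 1.26 ± 0.250 CPM (SD, n = 3 each; edgeR adjusted p = 0.755).

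Ankrd1 encodes a cardiac and muscle ankyrin repeat protein and is a widely used YAP/TAZ target in other cells. It was close to undetected here, with 0, 1 and 0 counts in WT 1 to 3 and 1, 6 and 2 counts in GLUT1EC-/- 1 to 3. A count of 0 allows up to 3 counts, which is 0.0928 CPM in WT 1 and 0.0739 CPM in WT 3. It failed the filter on low counts, and no fold is given because the values lie at or near that limit in both groups. PCR copies were not marked by molecular identifiers, so this limit covers counting error only.

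The promoters of the target genes are shown because Ctgf, Cyr61, Ankrd1 and Amotl2 are known as TEAD targets yet had different levels and differences here. The 250 bases before the start of each gene were read from the RefSeq table of GRCm38.p6, in which 7 of the 9 members matched, with 9 starts in all. Ctgf and Tead1 are not among them. The TEAD motif GGAATG, searched on both strands (CATTCC on the other), was present before 6 of the 9 starts, from 5 members, against 12.6% of all 32851 promoters of that length. The windows of the 2 listed Wwtr1 starts share 216 bases and hold the same match, which is counted for both. A match is a description of letters and not evidence of binding. Below are the 250 bases before the start of Cyr61 (chr3:145649986-145650235, minus strand, 5′ to 3′), with the motif, which begins 103 bases before the start, in capitals.
Cyr61: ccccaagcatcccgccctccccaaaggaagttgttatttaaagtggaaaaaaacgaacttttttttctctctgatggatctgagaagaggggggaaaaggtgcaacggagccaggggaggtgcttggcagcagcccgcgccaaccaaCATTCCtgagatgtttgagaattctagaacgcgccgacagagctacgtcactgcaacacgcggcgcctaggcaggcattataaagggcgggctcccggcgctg

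The other matches are printed with 10 bases on either side, 26 bases in all, read 5′ to 3′ on the strand of the gene, with the motif in capitals. Ankrd1 held 2 matches, which begin 210 and 123 bases before its start, Amotl2 held 1 at 65 bases, Yap1 1 at 141 bases and Wwtr1 1 at 136 bases before the first of its 2 listed starts.
Ankrd1 (first match): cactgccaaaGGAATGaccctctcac
Ankrd1 (second match): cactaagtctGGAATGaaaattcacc
Amotl2: gaaactctcaCATTCCtggcatagca
Yap1: ggagtctgcaGGAATGtagcgacgcg
Wwtr1: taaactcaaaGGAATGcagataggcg
In GENCODE M21, which places some starts elsewhere, all 250 bases of the Ankrd1 window and 136 of the 250 bases of the Amotl2 window are annotated as exon sequence. Amotl1 and both listed starts of Lats2 held no match in this window. Further motifs were searched on both strands in the same windows, which include none of Ctgf or Tead1. The AP-1 motif TGANTCA was in none of these windows (6.75% of all promoters). The SMAD motif CAGACA was in that of Ankrd1 (17.1% of all) and the SRF CArG box in none (1.47% of all). Ankrd1 held 2 TEAD matches and had the lowest counts of the members, and Cyr61 held 1 and had the highest level per length. A relation between matches and levels was not tested.

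Amotl2 and Amotl1 encode angiomotin-like scaffold proteins of cell junctions that bind YAP and TAZ, and Amotl2 is itself a target gene. Amotl2 (chr9:102716672-102733418, plus strand) was at 496, 423 and 426 CPM in WT 1 to 3, against 364, 463 and 398 CPM in GLUT1EC-/- 1 to 3. The groups overlapped, with a log2 fold change of -0.14 (SE 0.15, 95% interval -0.47 to 0.20). Amotl1 (chr9:14541966-14645056, minus strand) was at 185, 189 and 143 CPM in the WT libraries, against 177, 211 and 168 CPM in those labelled GLUT1EC-/-. Its log2 fold change was 0.10 (SE 0.16, 95% interval -0.26 to 0.47), and the groups overlapped as well. With library size alone, Amotl2 was at 503, 427 and 438 CPM in WT 1 to 3 and at 372, 409 and 416 CPM in GLUT1EC-/- 1 to 3. The groups did not overlap there, so the separation of its groups depended on the scaling. With TMM scaling the groups did not overlap in 22.9% of all tested genes.

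Lats2, a kinase that inhibits YAP and TAZ and is also one of their targets, was the steadiest member, with a coefficient of variation of 5.70% in WT and 7.58% in the knockout-labelled libraries. It was at 226, 226 and 205 CPM in WT 1 to 3, against 213, 247 and 224 CPM in GLUT1EC-/- 1 to 3, a log2 fold change of 0.06 (SE 0.13, 95% interval -0.23 to 0.35). The groups overlapped. Lats2 lies on the minus strand at chr14:57689662-57758388, where the coding gene Gm49361, annotated on that strand too, shares 2955 of its 6971 exon bases. Gm49361 has no row of its own in the counts. Reads from it could not be told apart from those of Lats2, so the Lats2 count is uncertain.

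The co-activators themselves had nearly equal group means. Yap1 (chr9:7931999-8004596, minus strand) was at 183, 186 and 159 CPM in WT 1 to 3, against 178, 199 and 152 CPM in GLUT1EC-/- 1 to 3, with means of 176 ± 14.7 and 176 ± 23.7 CPM (SD, n = 3 each). Its log2 fold change was 0.0018 (SE 0.15), with a 95% interval of -0.33 to 0.34 that leaves room for a fold of 0.793 to 1.26. Wwtr1 (chr3:57455649-57575910, minus strand), the TAZ gene, was at 343, 342 and 289.6 CPM in the WT libraries, against 348, 342 and 293 CPM in those labelled GLUT1EC-/-, a log2 fold change of 0.012 (SE 0.14, 95% interval -0.31 to 0.33). Per kb of exon sequence, the level of Wwtr1 was 3.53 to 3.63 times that of Yap1 in WT and 3.33 to 3.78 times in the knockout-labelled libraries. A non-coding gene on the other strand, Gm20416, overlaps 116 of the 9257 exon bases of Yap1 and has no row of its own in the counts.

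Tead1 encodes one of the DNA-binding partners of YAP and TAZ. It lies on the plus strand at chr7:112679318-112906807. Its level was 58.0, 59.2 and 51.9 CPM in WT 1 to 3, against 80.5, 94.98 and 59.0 CPM in GLUT1EC-/- 1 to 3. GLUT1EC-/- 1 and 2 lay above all WT libraries, and GLUT1EC-/- 3 lay just below WT 2, so the groups overlapped by that library. WT 2 is of the lower animal number series and GLUT1EC-/- 3 of the higher. With library size alone GLUT1EC-/- 3, at 61.7 CPM, lay above WT 2, at 59.8 CPM, and the groups did not overlap. With TMM scaling that held for 22.9% of all tested genes. The means were 56.4 ± 3.93 and 78.2 ± 18.1 CPM (SD, n = 3 each), a log2 fold change of 0.47 (SE 0.18, 95% interval 0.05 to 0.89) that was not called after adjustment over all genes. The value was 0.46 and 0.57 within the animal number series, and single libraries left out moved the fitted value between 0.30 and 0.64.

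**Figure D2:**
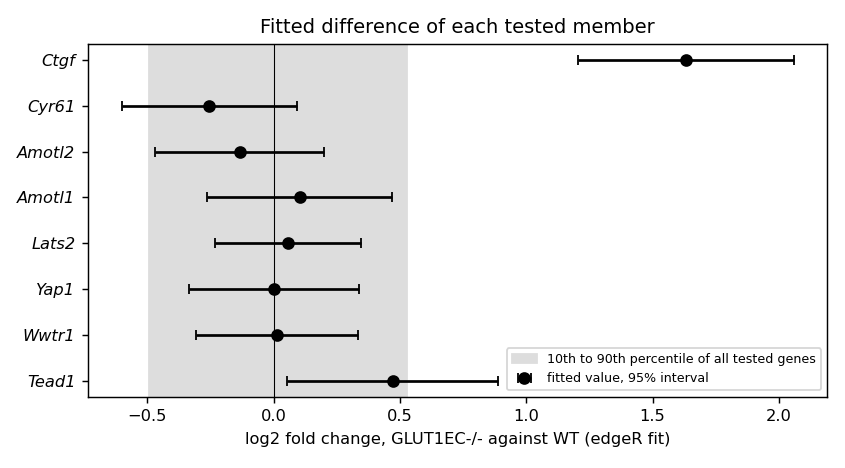
Fitted log2 fold change (horizontal axis) of the 8 tested members, knockout-labelled libraries against WT, with 95% intervals from the edgeR fit; the grey band holds the values from the 10th to the 90th percentile of all 14838 tested genes (-0.50 to 0.53). The values of 7 members lie inside the band, and Ctgf lies at 1.63.

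Levels between genes were compared as CPM per kb of annotated exon sequence (GENCODE M21, which need not be the authors' gene models). In WT the order was Cyr61 at 639.7 ± 74.5, Amotl2 at 71.3 ± 6.57, Wwtr1 at 68.0 ± 6.40, Ctgf at 46.6 ± 7.43, Lats2 at 31.4 ± 1.79, Yap1 at 19.0 ± 1.59, Amotl1 at 17.1 ± 2.53 and Tead1 at 4.15 ± 0.290 CPM per kb (SD, n = 3 each). The libraries of Amotl2 and Wwtr1 overlapped, as did those of Yap1 and Amotl1, while the other neighbours in this order did not. In the knockout-labelled libraries Ctgf stood in the second place of the order at 144 ± 25.6 CPM per kb, behind Cyr61 at 536 ± 58.5 and ahead of Wwtr1 at 68.5 ± 6.35 and Amotl2 at 64.9 ± 7.99 CPM per kb (SD, n = 3 each). Apart from Ctgf, and apart from the exchange of Amotl2 and Wwtr1, whose libraries overlap in both groups, the order was the same in both groups.

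The wider pathway was described with lists of genes that are not members. Beside their counts, 2148 of all 14838 tested genes had an unadjusted p under 0.05 in edgeR. Among 19 Hippo kinases and upstream regulators, 0 passed in either direction in edgeR, and 3 had an unadjusted p under 0.05. On this list limma-voom called 0, and DESeq2, which called 879 of all 14838 tested genes, called 1 as lower, Stk4. The median log2 fold change was 0.06, against 0.01 over all tested genes. The genes with the highest CPM were Map4k4, a kinase that acts on LATS beside the core Hippo kinases, at 342 ± 25.4 and 378 ± 101 CPM (edgeR adjusted p = 0.764), and Taok2, a kinase of the TAO family upstream of the Hippo kinases, at 240.1 ± 20.98 and 240.1 ± 12.3 CPM (edgeR adjusted p = 1). Map4k4 was highest of all in GLUT1EC-/- 2, at 491 CPM. Stk4, the Hippo kinase MST1, was named after its values were seen: it was at 42.2, 43.7 and 37.9 CPM in the WT libraries, against 31.9, 24.9 and 29.7 CPM in those labelled GLUT1EC-/- (log2 change -0.52 with an SE of 0.14, adjusted p = 0.146 in edgeR).

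Of 7 TEAD paralogs and VGLL cofactors, 5 were tested and 0 passed (edgeR; 2 had an unadjusted p under 0.05, and DESeq2 and limma-voom also called 0), with a median of 0.05. Tead2 had the highest CPM, which is not corrected for gene length, at 59.6 ± 3.48 and 61.8 ± 5.12 CPM (edgeR adjusted p = 0.878), followed by Vgll4, which competes with YAP for TEAD, at 38.5 ± 2.07 and 39.1 ± 1.31 CPM (edgeR adjusted p = 0.939). Tead3 and Tead4 were named after their values were seen. Tead4 was at 31.3, 29.7 and 27.3 CPM in the WT libraries, against 35.9, 60.4 and 34.2 CPM in those labelled GLUT1EC-/- (log2 change 0.56 with an SE of 0.22, adjusted p = 0.296 in edgeR), and Tead3 had a log2 change of 0.63 with an SE of 0.24 (adjusted p = 0.278 in edgeR). In both the groups did not overlap, which held for 22.9% of all tested genes, and GLUT1EC-/- 2 was far above the other libraries. Vgll1 and Vgll2 had 0 counts in every library.

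No other YAP/TAZ target gene rose past the threshold in the edgeR fit. Among the 18 tested there were 0 rises, 1 fall and 17 genes short of the threshold, with a median log2 fold change of 0.24 and 14 positive values. An unadjusted p under 0.05 (edgeR) was found for 8 of the 18, and for 2148 of all 14838 tested genes. In 6 of the 18 the knockout-labelled libraries all lay above WT and in 1 all lay below, against 11.7% and 11.2% of all tested genes. The gene that fell was Tgfb2, the ligand TGF-beta 2, at 193, 208 and 168 CPM in WT 1 to 3, against 107, 122 and 97.2 CPM in GLUT1EC-/- 1 to 3 (log2 change -0.80 with an SE of 0.15, adjusted p = 0.046 in edgeR). Its call was lost without any single library other than GLUT1EC-/- 2 and with the animal number series as a term. Over all genes 0, 1 and 5 were called without WT 1, WT 2 and WT 3. The number was 32 without GLUT1EC-/- 1, 283 without GLUT1EC-/- 3 and 14 with the series as a term. Without GLUT1EC-/- 2, 5 of the 18 were called: Birc5, F3 and Igfbp3 as higher and Gadd45a and Tgfb2 as lower. That fit called 862 of all 15053 genes it tested.

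The largest values on this list were named after they were seen. Igfbp3, which binds insulin-like growth factors outside the cell, was at 159, 232 and 216 CPM in the WT libraries, against 347, 848 and 496 CPM in those labelled GLUT1EC-/- (log2 change 1.48 with an SE of 0.32, adjusted p = 0.0735 in edgeR). F3, tissue factor, was at 3.43, 3.45 and 3.33 CPM in the WT libraries, against 6.29, 5.50 and 6.71 CPM in those labelled GLUT1EC-/- (log2 change 0.86 with an SE of 0.20, adjusted p = 0.0973 in edgeR). Birc5, survivin, which also marks dividing cells, was low and varied widely, at 0.464, 0.380 and 0.345 CPM in the WT libraries, against 5.90, 0.747 and 3.71 CPM in those labelled GLUT1EC-/- (log2 change 3.12 with an SE of 0.69, adjusted p = 0.08 in edgeR). In all 3 the knockout-labelled libraries all lay above WT, which held for 11.7% of all tested genes, and none passed the threshold. DESeq2 called all 3 and Tgfb2, and edgeR with no filter on low counts called Igfbp3. Over all genes these settings called 879 of 14838 and 246 of 18507.

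Ctgf is also known to respond to TGF-beta and to SRF, and both gene lists were described beside it. Of 9 TGF-beta response genes, 1 rose, 0 fell and 8 did not pass, with a median of -0.11. An unadjusted p under 0.05 (edgeR) was found for 2 of the 9. Tgfbi, a secreted matrix protein, was at 23.0, 31.2 and 24.3 CPM in the WT libraries, against 62.6, 61.5 and 60.1 CPM in those labelled GLUT1EC-/- (log2 change 1.23 with an SE of 0.15, adjusted p = 0.0164 in edgeR). Its groups lay well apart. It was not called without WT 1, WT 2, WT 3 or GLUT1EC-/- 1, where 0, 1, 5 and 32 of all genes were called. Nor was it called with the animal number series as a term, where 14 of all genes were called. The other 8 genes ranged from a log2 change of -0.51 in Bhlhe40 (SE 0.17, adjusted p = 0.227 in edgeR) to 0.70 in Smad6, an inhibitory Smad (SE 0.31, adjusted p = 0.355 in edgeR), both named after their values were seen. In both the groups did not overlap, which held for 22.9% of all tested genes. Smad6 in GLUT1EC-/- 1, at 98.2 CPM, lay only just above WT 1, at 97.6 CPM.

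Of 13 SRF and MRTF target genes, 0 passed (edgeR, where 1 had an unadjusted p under 0.05, and DESeq2 and limma-voom also called 0), with a median of -0.05. Acta2, Tagln and Cnn1 of this list are also among the smooth muscle markers described below, so those lists are not independent. Without GLUT1EC-/- 2, Cnn1 was called, in a fit that called 862 of all 15053 genes it tested. The genes with the highest CPM were Actb, beta-actin, at 1499 ± 95.8 and 1448 ± 81.2 CPM (edgeR adjusted p = 0.882), and Flna, filamin A, at 868 ± 119 and 938 ± 94.6 CPM (edgeR adjusted p = 0.769).

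**Figure D3:**
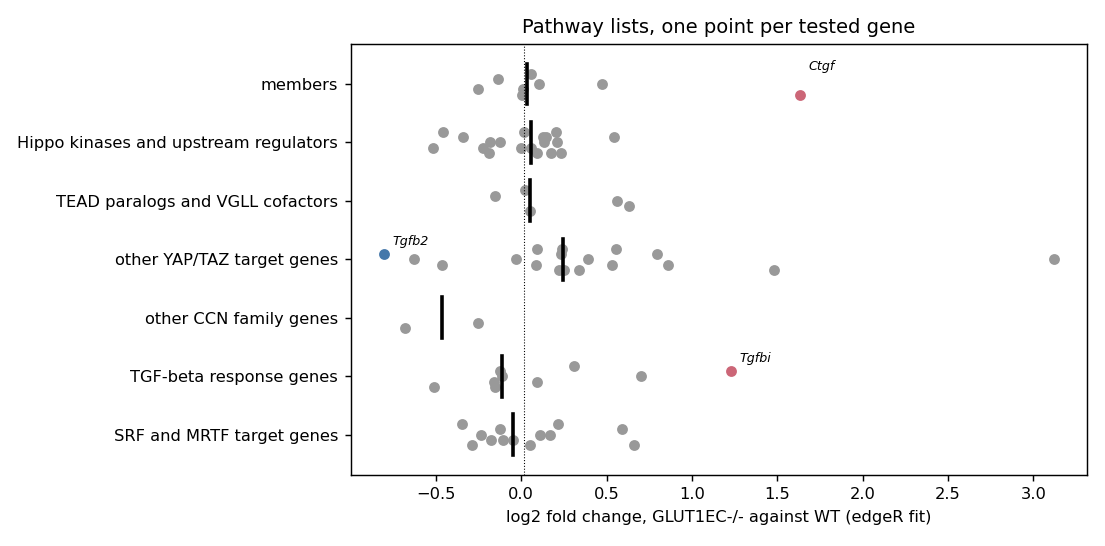
Fitted log2 fold change (horizontal axis) of each tested gene of the members and of the 6 pathway lists (rows), knockout-labelled libraries against WT; red points were called higher, blue lower and grey not called, black bars are list medians and the dotted line is the median of all tested genes. Called genes are Ctgf, Tgfb2 and Tgfbi, and the list medians lie between -0.47 and 0.24.

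Markers of other cell types were summed in each library, because sorted cells can carry RNA of their neighbours. The 8 fibroblast markers, a cell type known for high CTGF, summed to 95.3, 114 and 106 CPM in WT 1 to 3 and to 210, 165 and 389 CPM in GLUT1EC-/- 1 to 3. All 8 had positive values, and none was at 0 in all libraries. In edgeR 7 of the 8 had an unadjusted p under 0.05 and 1 passed (Dcn, edgeR adjusted p = 0.00997). DESeq2 called 4 of the 8, and 879 of all 14838 tested genes. In 5 of the 8 the knockout-labelled libraries all lay above WT, against 11.7% of all tested genes. Dcn was at 18.3, 19.7 and 20.6 CPM in WT 1 to 3 and at 68.2, 68.0 and 103 CPM in GLUT1EC-/- 1 to 3. Among the knockout-labelled libraries the sum was lowest in GLUT1EC-/- 2 and highest in GLUT1EC-/- 3. Ctgf was at 328, 451 and 459 CPM in GLUT1EC-/- 1 to 3. The part of these cells in the Ctgf level was not tested.

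The 8 astrocyte markers summed to 98.39, 116 and 98.45 CPM in WT 1 to 3 and to 135, 153 and 162 CPM in GLUT1EC-/- 1 to 3. Most of that difference lay in Gfap, an intermediate filament protein of astrocytes and the 1 astrocyte marker that passed, at 5.60, 5.90 and 5.44 CPM in the WT libraries, against 36.4, 36.6 and 59.8 CPM in those labelled GLUT1EC-/- (log2 change 2.97 with an SE of 0.23, adjusted p = 0.00669 in edgeR). The other 7 summed to 92.8, 110.1 and 93.0 CPM in WT 1 to 3 and to 98.3, 116 and 102 CPM in GLUT1EC-/- 1 to 3. These sums overlapped. Of the 8 astrocyte markers, 3 had negative values, 3 had an unadjusted p under 0.05 (edgeR) and none was at 0 in all libraries. The 9 pericyte markers summed to 1126 to 1330 CPM in WT and 1271 to 1613 CPM in the knockout-labelled libraries, and the 6 smooth muscle markers to 1868 to 2529 and 1810 to 2451 CPM. Both sums overlapped between the groups, and 0 of the 9 and 0 of the 6 passed (edgeR; 3 and 0 had an unadjusted p under 0.05, and DESeq2 and limma-voom also called 0). Their part in the values of the members was not tested.

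**Figure D4:**
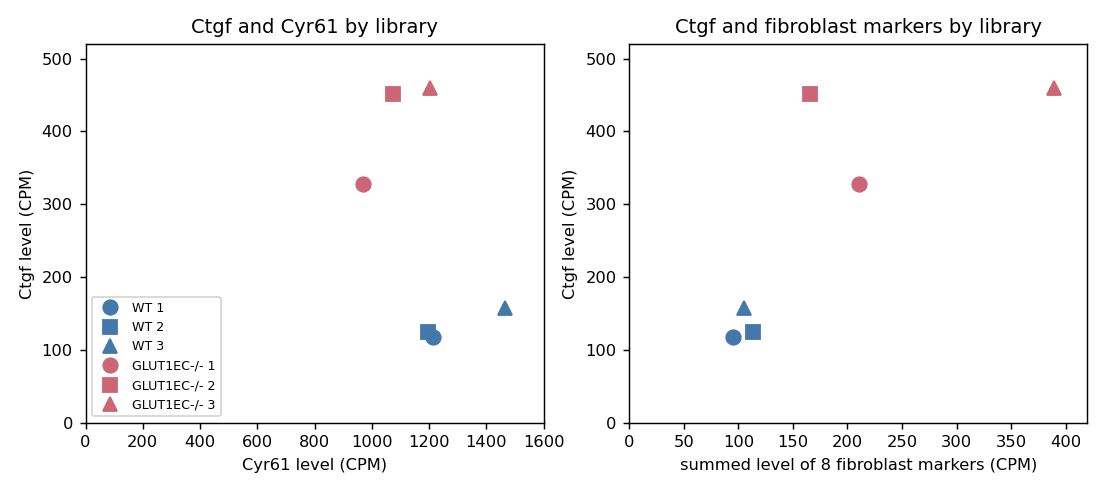
Ctgf level in CPM (vertical axes) in each library against the Cyr61 level in CPM (left) and against the summed level of 8 fibroblast markers in CPM (right); blue is WT, red is GLUT1EC-/-, and circles, squares and triangles are replicates 1, 2 and 3. Ctgf separates the groups while Cyr61 overlaps, and the marker sums are 95.3 to 114 CPM in WT and 165 to 389 CPM in GLUT1EC-/-.

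The genes whose levels followed Ctgf most closely over the 6 libraries were sought by Pearson's r of log2(CPM + 1). The search took in 8849 tested genes whose mean reached 10 CPM, with the members and all Gm-numbered and Rik names left out. With 6 points in separate groups, r mainly records the difference between the groups, and 100 genes had an r above 0.95. The 5 highest were Lpin3, a phosphatidate phosphatase (r = 0.992), Ctdnep1, a nuclear envelope phosphatase (r = 0.992), Sparc, a collagen-binding matrix protein (r = 0.990), Hif3a, a member of the hypoxia-inducible factor family (r = 0.988), and Ercc1, a DNA repair nuclease subunit (r = 0.988). Lpin3 was at 3.03, 3.36 and 5.74 CPM in WT 1 to 3, against 21.8, 27.4 and 25.7 CPM in GLUT1EC-/- 1 to 3. Ctdnep1 followed Ctgf over a far smaller range, from 84.6 ± 0.847 to 91.5 ± 1.11 CPM (SD, n = 3 each).

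Among the members, r with Ctgf by the same measure was 0.65 for Tead1, 0.34 for Lats2, 0.22 for Amotl1, -0.12 for Yap1, -0.14 for Wwtr1, -0.42 for Amotl2 and -0.52 for Cyr61. Yap1 and Wwtr1 followed each other more closely (r = 0.90), as did Amotl1 and Lats2 (r = 0.90), and Cyr61 went against Tead1 (r = -0.82) and Wwtr1 (r = -0.72). These values over 6 libraries are descriptions that share library scaling, and no test was made of them.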

How the data were processed

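Per the labels' protocols, stranded mRNA libraries (Illumina TruSeq) were sequenced single-end over 100 bp. STAR alignment to GRCm38 and counting with featureCounts were done by the authors, per the submitters' processing notes; their versions, gene models and strand setting are not given in the sources used here. Each deposited file lists the raw, whole-number counts of 1 library by gene symbol. The test was edgeR 4.0.16 (R 4.3.3): quasi-likelihood F test, genotype as the only term, all 6 libraries, TMM scaling, filterByExpr (minimum count 10, minimum total 15), robust dispersions, Benjamini-Hochberg adjustment over all tested genes at 0.05. Standard errors were derived from F. The test was tried on simulated counts. Alternatives used other scalings, filters, DESeq2 1.42.0, limma-voom (limma 3.58.1), non-robust dispersions, the animal number series as a term and each library left out. Within-group library pairs differed far beyond counting noise (chi-square per degree of freedom 12.8 to 192), so none was counted as 1 sample. The labels name separate animals but no pairing.

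The members and lists were chosen with earlier results of these data known. Named besides the members are for each list up to 4 called genes with the lowest adjusted p, or its 2 genes of highest mean CPM if it had no call, and the 5 genes most like Ctgf; others are marked. Ajuba was counted under its older symbol. One listed pathway gene is not reported here and was left out of its list. Marker lists not described beside a member are not reported.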

Additional observations from a re-analysis of the deposited data

How the results depend on the processing

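The fitted log2 fold change of Ctgf was positive under all 15 alternatives, from 1.49 to 1.77, and 1.54 to 1.77 with single libraries left out. Its call, and with it the count of called members, fell from 1 to 0 without WT 1, WT 2 or WT 3. Over all genes these fits called 0, 1 and 5. Cyr61 and Amotl2 stayed negative (-0.34 to -0.16 and -0.24 to -0.06) and Tead1 positive (0.30 to 0.64) under all 15, and none of these was called under any. Values near 0 changed sign. Yap1 was at -0.040 with upper-quartile scaling, -0.056 with library size alone, -0.0068 with no filter on low counts, -0.00095 with at least 1 CPM in 3 libraries and -0.0038 with limma-voom, and without WT 3, GLUT1EC-/- 1 or GLUT1EC-/- 2 at -0.067, -0.0064 and -0.10 (range up to 0.099 over single libraries left out). Wwtr1 was at -0.027 with upper-quartile scaling and -0.040 with library size alone, and without the same 3 libraries at -0.066, -0.034 and -0.026 (up to 0.086). Amotl1 was at -0.017 without WT 3 and -0.0081 without GLUT1EC-/- 2 (up to 0.17), and Lats2 at -0.011 without GLUT1EC-/- 2 (up to 0.10). Over all genes, 194 were called; the number was 14 with the animal number series as a term, 879 with DESeq2 and 0 to 862 with single libraries left out, the lowest without WT 1 and the highest without GLUT1EC-/- 2. The cause was not tested. No scaling moved the median of all genes by over 0.1. No paired analysis was possible because the labels do not say which WT animal was a littermate of which knockout animal; the animal number series is the term that could be fitted.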
